A study of Homo sapiens with 64 samples.

Results

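Goblet cells and related secretory cells of the gut make mucus, and 10 genes known for that work were followed here by their symbols: the mucins MUC2 and MUC5AC, the trefoil factors TFF1, TFF2 and TFF3, the anterior gradient proteins AGR2 and AGR3, SPINK4, FCGBP and the transcription factor SPDEF. Rows were found by matching each symbol to an Ensembl identifier, which gave 9 of the 10 genes among 54127 genes listed. FCGBP was not matched and is not analysed here.

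The libraries were RNA sequencing of established human colorectal cancer cell lines grown as nonadherent spheroids with bFGF and EGF. From each of 6 lines (HT55, SW948, RKO, SW48, DLD1 and HCT15), cells labeled with the dye CFSE, which is diluted at each division, were sorted at day 6 into label-retaining cells (LRCs, CFSE high) and the cycling bulk (non-LRCs), with 4 libraries per population and line, 48 in all. A further 16 unsorted libraries labeled as DLD1 were controls for the dye and for culture: CFSE or DMSO alone, on day 1 or on a later day, with 4 libraries in each group. The sample labels call that later day d5 whereas the study's methods call it day 6, so it is called the later day here. Sorted cells of both populations had been labeled with the dye, and the LRCs, sorted as CFSE high, held more of it than the non-LRCs. Each line is a single cell line, so that differences between lines are differences between these lines.

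In normal colon, goblet cells secrete MUC2 as the main gel-forming mucin of the mucus layer, whereas MUC5AC and TFF1 belong to the surface mucous cells of the stomach and TFF2 to its deeper mucous glands. TFF3 is the trefoil peptide that goblet cells release with MUC2, and AGR2 is a protein disulfide isomerase of the endoplasmic reticulum needed for mucin folding, with AGR3 as its relative. SPDEF drives goblet cell maturation and SPINK4 is a small secreted peptide found in goblet cells.

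The genes sit in few places of the genome. In GRCh37, the build of the counts, MUC2 (ENSG00000198788) lay at chr11:1074875-1104416 and MUC5AC (ENSG00000215182) at chr11:1151580-1222364, both on the plus strand. The trefoil factors followed each other on the minus strand of chromosome 21, TFF3 (ENSG00000160180) at chr21:43731777-43735519, TFF2 (ENSG00000160181) at chr21:43766466-43771106 and TFF1 (ENSG00000160182) at chr21:43782391-43786644. AGR2 (ENSG00000106541) at chr7:16831435-16873057 and AGR3 (ENSG00000173467) at chr7:16899036-16921611 were minus-strand neighbors 26.0 kb apart with 0 protein-coding genes between them. SPINK4 (ENSG00000122711) lay at chr9:33218363-33248565 on the plus strand and SPDEF (ENSG00000124664) at chr6:34505579-34524110 on the minus strand. SPINK4 overlapped BAG1 on the opposite strand, and since the strand setting of the counting is not given in the sources used here, its few reads cannot be told apart from reads of BAG1.

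AGR2 was the gene called in both the LRC and the dye comparisons below, and its neighbor AGR3 did not share its order over the lines. Their promoters are shown for that reason, each from 250 bases before to 50 bases after the start site, from RefSeq on GRCh38.p14, minus strand, AGR2 at chr7:16804950-16805249 and AGR3 at chr7:16881934-16882233. For AGR2 and SPINK4 the RefSeq start site lies inside the GRCh37 gene span given above, not at its end. The distance between AGR2 and AGR3 given above is between gene spans. Capitals mark matches to 3 motifs searched on both strands, TATAAA (the TATA box), TGTTTNC (a forkhead site) and CCGGAT (an ETS site of the SPDEF kind).
AGR2: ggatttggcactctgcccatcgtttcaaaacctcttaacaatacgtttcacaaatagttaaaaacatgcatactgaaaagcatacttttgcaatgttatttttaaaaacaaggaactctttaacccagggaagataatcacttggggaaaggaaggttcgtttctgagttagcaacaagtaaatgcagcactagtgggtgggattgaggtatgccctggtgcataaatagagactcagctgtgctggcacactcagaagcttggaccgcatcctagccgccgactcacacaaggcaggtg
AGR3: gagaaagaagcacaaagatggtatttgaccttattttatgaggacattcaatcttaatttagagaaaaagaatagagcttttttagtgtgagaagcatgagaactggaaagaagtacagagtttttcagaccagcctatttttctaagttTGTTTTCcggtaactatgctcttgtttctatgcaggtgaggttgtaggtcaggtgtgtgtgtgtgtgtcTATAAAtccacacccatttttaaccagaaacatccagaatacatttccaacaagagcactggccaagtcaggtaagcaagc
AGR3 held TATAAA with its first base at -31 and TGTTTTC with its first base at -100, both on the gene's strand, and AGR2 held no match to these letters in this window. Among 35116 promoters of this length, 11.5% held TATAAA, 18% TGTTTNC and 7.12% CCGGAT. In the same window SPINK4 held TATAAA at -29 and CCGGAT at -105, both on its own strand, and MUC2, FCGBP and SPDEF held no match to these letters. Promoters of MUC5AC, TFF1, TFF2 and TFF3 were not searched here.

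Depth ranged from 12237225 to 20913455 reads counted in genes per library. Values below are CPM, the reads of a gene scaled to a fixed total of reads counted in genes, and RPKM where the exon length of a gene is taken into account. Fold changes are log2 values from edgeR with trimmed mean (TMM) normalization, with standard errors (SE) and Benjamini-Hochberg adjusted p over all genes tested, and a gene is called at an adjusted p under 0.05. In sorted or bulk RNA, fewer cells of a type and less RNA per cell cannot be told apart. Across all genes, each of the 48 sorted libraries was nearest to its own line, but 5 were nearer to the other population of that line than to their own, among them SW948 LRC replicate 4 (mean r 0.983 with the other LRCs and 0.994 with the non-LRCs) and HT55 non-LRC replicate 2 (0.976 and 0.986).

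The 16 unsorted libraries labeled DLD1 stood apart from sorted DLD1 in these genes and in others. Over 16899 genes, log2 CPM of each of the 16 correlated better with the mean of sorted HCT15 (r from 0.943 to 0.989) than with that of sorted DLD1 (0.903 to 0.946), and 0 of the 16 were nearest to DLD1. The 8 sorted DLD1 libraries correlated with their own line at 0.989 to 0.991. The libraries are therefore named by their labels throughout, and control results are not carried over to sorted DLD1. The cause of this was not tested.

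Line by line, most of these genes were higher in HT55, SW948 and DLD1 than in RKO, SW48 and HCT15, with exceptions. In SW948 non-LRCs, AGR2, TFF3, TFF1 and MUC2 had means above 10 CPM. In HT55 non-LRCs SPINK4 had 1 read and SPDEF 4 reads over 4 libraries. In the 8 DLD1 libraries 3 of the 9 genes (MUC2, AGR3 and SPINK4) stayed under 1 CPM. In the 8 HCT15 libraries 8 of the 9 did, all but AGR2, and in the 16 RKO and SW48 libraries 9 of the 9. All 9 genes differed over the 6 lines in non-LRCs (edgeR F test, largest adjusted p 3.44e-11 for SPINK4), where 98.3% of all genes tested did, so that the members are not set apart by it. The order of the levels is therefore described below. Of the 9 members, 8 were called between HT55 and SW948, where 71.7% of all genes were, 9 between HT55 and DLD1 (71.4%) and 7 between SW948 and DLD1 (70.8%). Between HT55 and HCT15 7 were called (73.9%), between RKO and HCT15 2 (74.4%) and between SW48 and HCT15 1 (67.4%). Members entered this fit through the lines in which they were high, so that these counts are descriptions.

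**Figure D1:**
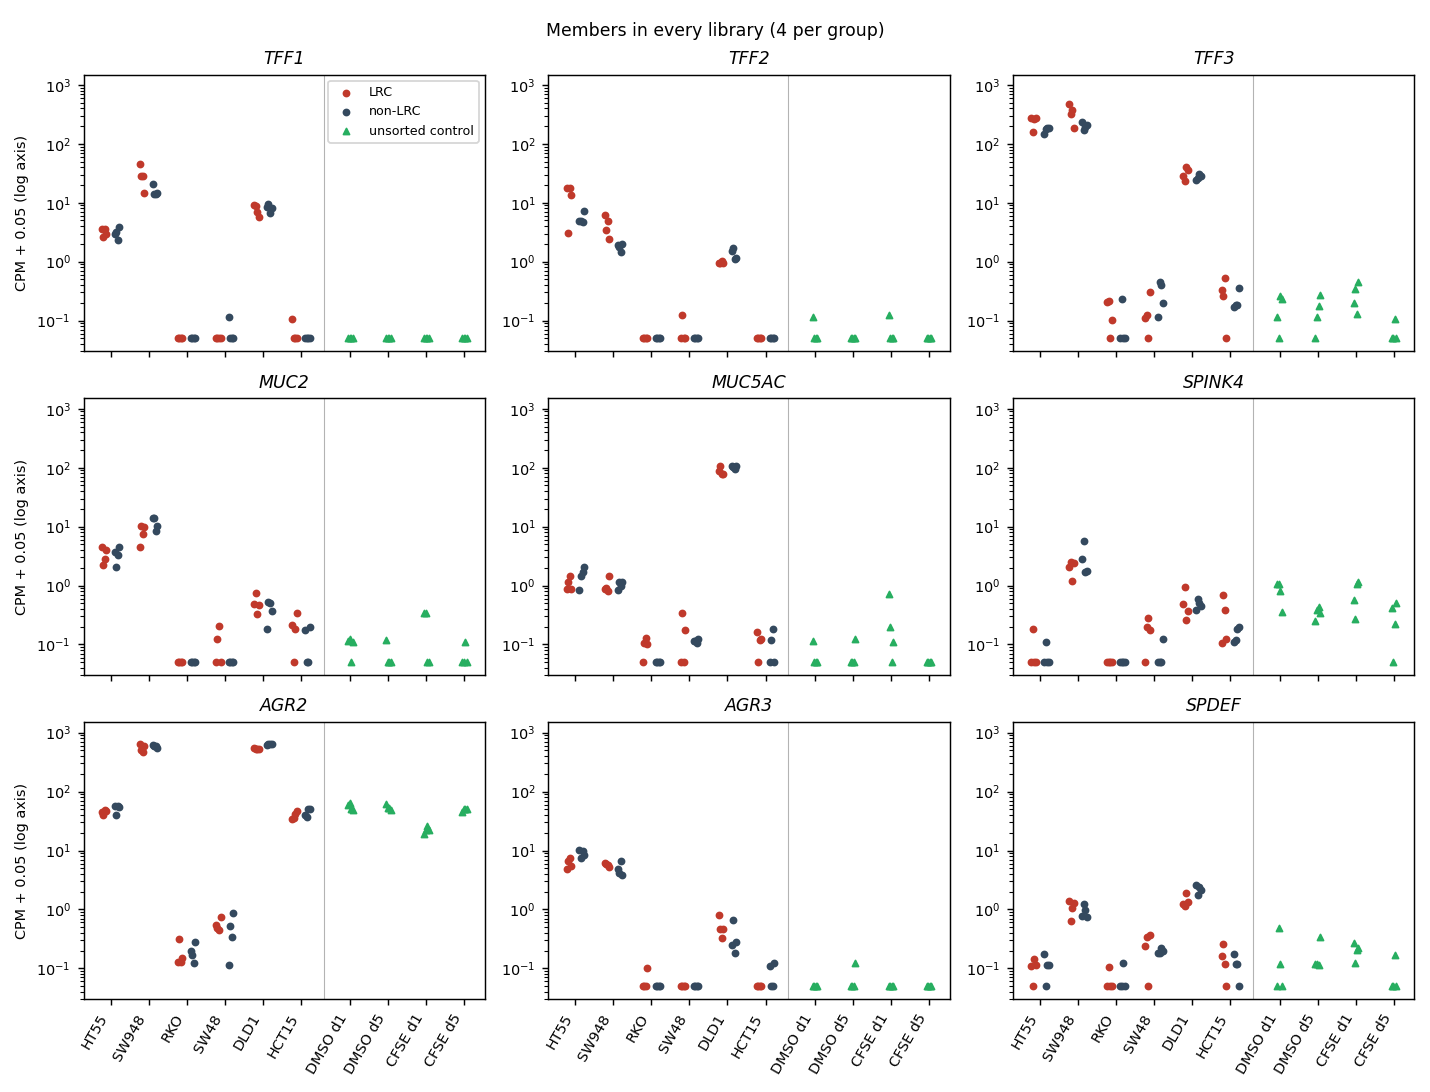
CPM of the 9 genes in each of the 64 libraries, on a log axis after adding 0.05, with LRCs in red, non-LRCs in dark blue and the unsorted controls labeled DLD1 as green triangles, 4 points per group. The values of HT55, SW948 and DLD1 stand above those of RKO and SW48 in most panels, and the controls lie below sorted DLD1 for AGR2, MUC5AC and the trefoil factors.

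TFF3 had the highest level per exon length of the trefoil factors in HT55, SW948 and DLD1. Its non-LRC levels were 239, 175, 195 and 210 CPM in SW948 replicates 1 to 4 and 145, 178, 187 and 183 in HT55. The 2 lines overlapped and did not differ (log2 HT55 over SW948 0.01, SE 0.12, adjusted p = 0.93). DLD1 had 24.2, 26.7, 30.2 and 28.6 CPM, below HT55 by 2.97 on the log2 scale (SE 0.13, adjusted p = 2e-16). SW48, HCT15 and RKO had means of 0.24, 0.174 and 0.0455 CPM, and neighbors among these did not differ (adjusted p 0.33 and 0.15).

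TFF1 was highest in SW948, at 20.5, 13.9, 14.2 and 14.4 CPM in non-LRCs, then in DLD1 at 8.55, 9.43, 6.57 and 8.06, then in HT55 at 2.9, 3.09, 2.31 and 3.86. Neighbors in this order did not overlap for DLD1 and HT55 or for SW948 and DLD1, and each step passed the test (log2 1.01 with SE 0.18, and 1.11 with SE 0.20, both adjusted p = 5.9e-05). In RKO, SW48 and HCT15, 2 reads in all 24 libraries together matched TFF1. TFF2, a second trefoil factor of gastric glands, was highest in HT55 (5.38 ± 1.15 CPM, SD, n = 4) and lower in SW948 (1.72 ± 0.233) and DLD1 (1.32 ± 0.289). The step from HT55 to SW948 passed the test (log2 1.89, SE 0.22, adjusted p = 6.2e-07), and that from SW948 to DLD1 did not (0.43, SE 0.25, adjusted p = 0.13).

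The 2 mucins followed different lines. MUC5AC, a gel-forming mucin of the stomach, was at 107, 101, 94.1 and 109 CPM in DLD1 non-LRCs, and at 1.48 ± 0.521 in HT55 and 0.978 ± 0.14 in SW948 (SD, n = 4). Every DLD1 library was above every library of the other lines, by 5.80 on the log2 scale against HT55 (SE 0.17, adjusted p = 1.6e-18). MUC2 was instead highest in SW948 at 13.8, 14, 8.29 and 10.4 CPM, above HT55 at 3.64, 1.98, 3.18 and 4.54 (log2 1.55, SE 0.26, adjusted p = 2.6e-05). DLD1 held 0.348 ± 0.16 CPM of MUC2. The GRCh37 gene models of both mucins are incomplete or taken over from another release, and reads of repeats that map to several places were not counted, so that their levels are uncertain.

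AGR2 was highest in DLD1 and SW948 and lowest in SW48 and RKO. Its non-LRC levels were 626, 635, 631 and 648 CPM in DLD1 and 616, 592, 588 and 550 in SW948. The 2 lines did not overlap in CPM, but the TMM-scaled difference did not pass the test (log2 DLD1 over SW948 0.05, SE 0.12, adjusted p = 0.71). HT55 had 56, 40.5, 57.2 and 55.1 CPM and HCT15 39.3, 36.6, 51.2 and 50.3, which overlapped in CPM although the TMM-scaled difference passed the test (log2 0.66, SE 0.13, adjusted p = 4.9e-05). Without TMM that difference was 0.24 and did not pass (adjusted p = 0.105). SW48 and RKO had 0.41 and 0.143 CPM. AGR3 was highest in HT55 (8.81 ± 1.21 CPM, SD, n = 4) and then in SW948 (4.85 ± 1.24), with a log2 difference of 1.11 (SE 0.22, adjusted p = 0.00019). AGR3 in DLD1 was at 0.297 ± 0.217 CPM, although AGR2 was highest there.

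SPDEF, the maturation factor, was highest in DLD1 at 2.51, 1.71, 2.39 and 2.11 CPM, then in SW948 at 0.734, 1.17, 0.942 and 0.699 (log2 1.24, SE 0.27, adjusted p = 0.00023). It was at 0.062 ± 0.0503 CPM in HT55 (SD, n = 4), where TFF3 was high. SPINK4 was highest in SW948 at 2.75, 5.54, 1.63 and 1.72 CPM, where replicate 2 stood above the others. In LRCs in place of non-LRCs, 3 of these calls between neighbors were lost, AGR3 (0.33, adjusted p = 0.154) and MUC5AC (0.34, adjusted p = 0.305) in HT55 against SW948 and SPDEF in SW948 against DLD1 (-0.31, adjusted p = 0.445), and TFF2 in SW948 against DLD1 gained one (2.24, adjusted p = 0.00028).

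Per exon length, TFF3 and AGR2 were close in SW948 non-LRCs, at 222 ± 29.2 and 212 ± 9.79 RPKM (SD, n = 4). In DLD1 AGR2 stood at 230 ± 3.36 RPKM against 29.7 ± 2.79 for TFF3, 17.3 ± 1.12 for MUC5AC and 16.6 ± 2.44 for TFF1. In HT55 the order turned, with TFF3 at 188 ± 21 RPKM and AGR2 at 18.9 ± 2.84.

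The lines were checked against markers of epithelium. EPCAM, an epithelial surface adhesion protein, was between 352 and 1349 CPM on average in 5 lines and at 15.3 CPM in RKO, where the adhesion protein CDH1 was at 0.876 CPM. The goblet cell determinant ATOH1 had 0 reads in non-LRCs of HT55, RKO, SW48, DLD1 and HCT15 and 0.502 CPM in SW948. CLCA1 and ZG16, further goblet cell products, did not exceed a mean of 0.0628 CPM in non-LRCs of any line. LYZ, which Paneth cells make but other gut cells also express, was at 1338.5 CPM in SW948 and at 54.1 CPM in HT55, and at 1.08 CPM or less in the other 4.

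Over the 12 means of line and population (log2 CPM, 12476 genes compared), TFF2 and TFF3 were the most alike of the 7 members that reached 5 CPM in a sorted group (Pearson r 0.98), followed by TFF3 and AGR3 (0.97), MUC2 and AGR3 (0.96) and TFF3 and TFF1 (0.96). The neighbors AGR2 and AGR3 correlated at 0.68. MUC5AC and MUC2, which lie 47.2 kb apart, correlated at 0.49. The genes most like TFF1 were the chloride channel CFTR (r 0.99), PLA2G7 (0.99) and ST6GALNAC1 (0.97), an enzyme that adds sialic acid to mucins. TFF3 was followed by ARHGEF38, AMACR and TMEM141 (0.99, 0.99 and 0.98), TFF2 by LINC02418, ARHGEF38 and VAV3 (0.99, 0.98 and 0.98), and MUC2 by AKR1C2 and APOBEC1 (0.99 and 0.99). AGR2 was most like MYRIP, MRE11 and BCL2L14 (0.99, 0.99 and 0.98), AGR3 like ABHD17C, LY75 and TMEM176A (0.99, 0.98 and 0.98), and MUC5AC like PLPP3, MLXIP and ARHGAP32 (0.97, 0.96 and 0.95). Such values rest on 6 lines, and both populations of a line share its cells.

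Comparing LRCs with non-LRCs asks which genes go with a low rate of division. Since LRCs also held more dye, slow division and the amount of dye cannot be told apart in this comparison. Across the 6 lines with the line as a covariate, TFF2 and TFF3 were higher in LRCs and AGR2 was lower. In the 24 libraries of RKO, SW48 and HCT15 together, TFF2 had 1 read and TFF3 55 reads. AGR2 had 72 reads in the 16 libraries of RKO and SW48. These lines thus add little to the results for these genes, which come mainly from the lines with reads. TFF3 rose by 0.47 on the log2 scale (SE 0.11, adjusted p = 0.0018), TFF2 by 0.88 (SE 0.23, adjusted p = 0.0060) and AGR2 fell by 0.17 (SE 0.06, adjusted p = 0.039). These were 3 of the 9 genes, and 22.9% of all 16603 genes tested were called, 12.2% higher and 10.7% lower, so that the share of members is close to the background. TFF1 (log2 0.31, SE 0.14, adjusted p = 0.117) and MUC5AC (-0.22, SE 0.12, adjusted p = 0.167) did not pass. MUC2 at -0.15, AGR3 at -0.10, SPDEF at -0.12 and SPINK4 at 0.0032 had adjusted p of 0.63 or more.

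The TFF3 call held in every alternative that tested it, with adjusted p from 5.3e-05 to 0.042. AGR2 missed the threshold with RLE factors (adjusted p = 0.052), without the filter on low counts (0.057), without replicates 2, 3 or 4 of every group (0.068, 0.26 and 0.090) and without HT55 LRC replicate 2 (0.059). Over all alternatives its adjusted p ranged from 0.0079, with the replicate number as a block (log2 -0.17, 4237 of 16603 genes called), to 0.26. TFF2 missed it without replicates 1 or 3 (0.068 and 0.11; range 0.00045 to 0.11). Without SW948 LRC replicate 4, HT55 LRC replicate 2 and HT55 non-LRC replicate 2, chosen after their values were seen, TFF1 also passed (log2 0.41, adjusted p = 0.030), as it did without replicate 4 of every group (0.46, adjusted p = 0.040; range 0.030 to 0.46). Of all genes, 26.4% and 15.7% were called in these fits.

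**Figure D2:**
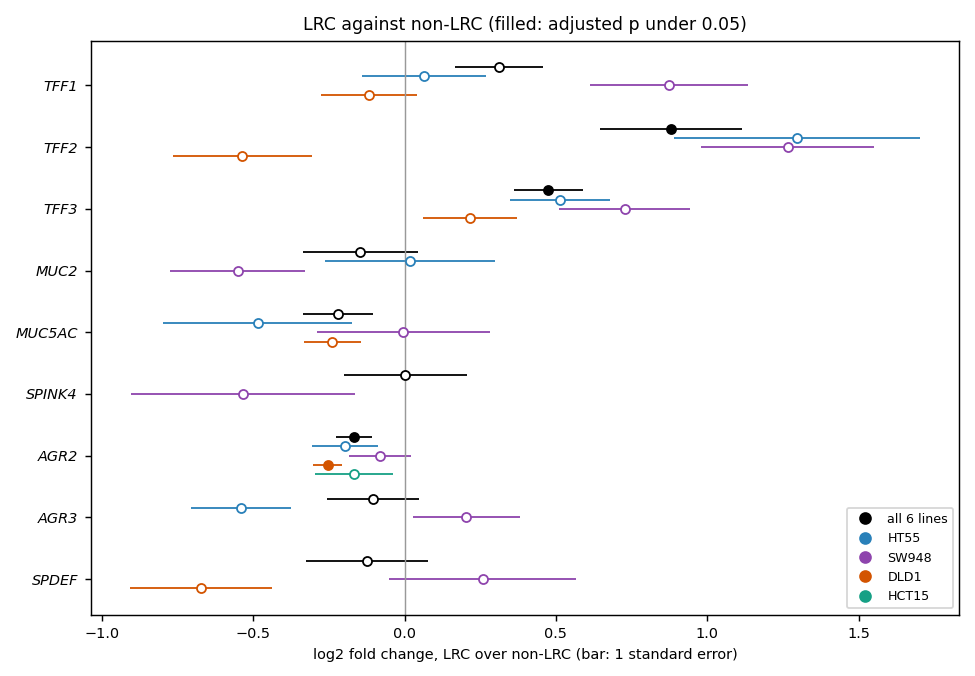
Log2 fold change of LRCs over non-LRCs for each gene, in black over all 6 lines and in color in the single lines in which the gene passed the filter on low counts, with bars of 1 SE and filled points where the adjusted p was under 0.05. TFF2, TFF3 and AGR2 are filled over the 6 lines and AGR2 in DLD1, while the TFF2 estimates of HT55 and SW948 lie near 1.3 with wide bars and that of DLD1 lies below 0.

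In SW948 TFF2 was higher in each of the 4 LRC libraries than in any non-LRC library, and TFF1 and TFF3 were so in 3 of the 4. TFF1 was at 45, 28, 28.6 and 14.7 CPM in LRCs against 20.5, 13.9, 14.2 and 14.4 in non-LRCs. TFF2 was at 6.1, 3.35, 4.92 and 2.37 CPM against 1.83, 1.75, 1.38 and 1.91, and its populations did not overlap. TFF3 was at 481, 319, 375 and 183 CPM against 239, 175, 195 and 210. For all 3 genes the lowest LRC library was replicate 4, which over all genes was nearer to the non-LRCs. The log2 differences were 0.87 (SE 0.26), 1.27 (SE 0.29) and 0.73 (SE 0.22), with adjusted p of 0.161, 0.133 and 0.159.

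In SW948 0 of 9 members were called by edgeR, as 0% of its 13674 genes were, although 4 members had an unadjusted p under 0.05, as 17.2% of all genes had, and DESeq2 called 1 member (TFF2) among 244 genes (1.78%). Without LRC replicate 4, TFF1, TFF2 and TFF3 passed with log2 differences of 1.1, 1.47 and 0.94 (edgeR adjusted p = 0.0015, 0.0011 and 0.00054), and 14.5% of all 13517 genes passed with them. LRC replicate 4 held the lowest LRC value of each of these genes, so that these passes are descriptions. With other single libraries left out, adjusted p of TFF1, TFF2 and TFF3 reached 0.47, 0.46 and 0.47. MUC2 went the other way, at 4.51, 10, 7.38 and 9.92 CPM in LRCs against 13.8, 14, 8.29 and 10.4, which overlapped, with a log2 difference of -0.55 (SE 0.22, adjusted p = 0.23).

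HT55 showed the same order of values for TFF2 and TFF3 in 3 of its 4 LRC libraries. TFF2 was at 17.8, 3.04, 17.9 and 13.3 CPM in LRCs against 4.93, 4.89, 4.62 and 7.1 in non-LRCs, and TFF3 at 280, 158, 264 and 276 against 145, 178, 187 and 183. LRC replicate 2 was low for both genes and within or below the non-LRCs. The log2 differences were 1.30 (SE 0.41) and 0.51 (SE 0.17), with adjusted p of 0.55 and 0.57, and 0 of 7 members were called by edgeR or DESeq2, where edgeR called 0% of 13391 genes. At an unadjusted p under 0.05, 3 of the 7 members and 7.51% of all genes passed.

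Without LRC replicate 2, TFF2 and TFF3 passed in HT55 (log2 1.62 and 0.67, edgeR adjusted p = 0.0056 and 0.029), among 43 of 13312 genes (0.323%). That library held the lowest LRC value of both genes, so that these passes are descriptions. Without non-LRC replicate 2, which over all genes was nearer to the LRCs, neither passed (edgeR adjusted p = 0.12 and 0.11), where 521 of 13290 genes did. Without other single libraries the adjusted p of both reached 0.999. TFF1 did not follow TFF2 and TFF3, at 3.59, 2.57, 3.49 and 2.88 CPM in LRCs against 2.9, 3.09, 2.31 and 3.86 (log2 0.06, SE 0.20). AGR3 was at 4.72, 6.48, 7.32 and 5.31 CPM against 9.98, 7.37, 9.62 and 8.28, so that the populations did not overlap, with a log2 difference of -0.54 (SE 0.16, adjusted p = 0.535). AGR2 was at 44.6, 39.6, 48 and 47.3 CPM in LRCs against 56, 40.5, 57.2 and 55.1, lower in 4 of 4 same-numbered libraries (log2 -0.20, SE 0.11, adjusted p = 0.73, and 0.26 with the replicate number as a block).

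**Figure D3:**
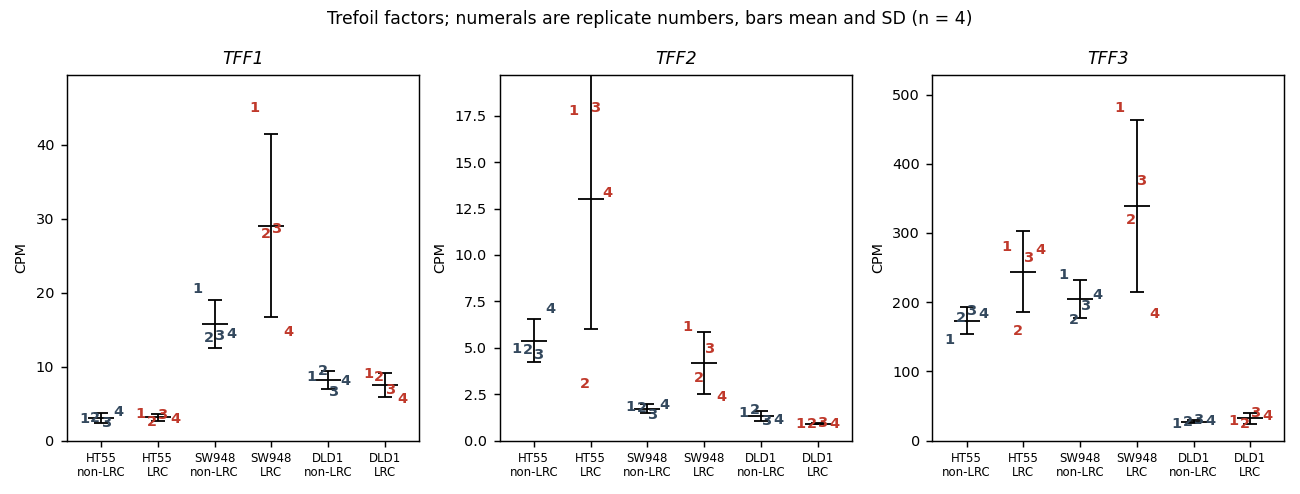
CPM of TFF1, TFF2 and TFF3 in HT55, SW948 and DLD1, where each numeral is the library with that replicate number (LRCs in red, non-LRCs in dark blue) and bars are the mean and SD of 4 libraries. In SW948, LRC replicate 4 lies lowest of the LRCs in all 3 panels, and in HT55, LRC replicate 2 lies lowest for all 3 genes, near the non-LRCs for TFF3 and below them for TFF2.

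DLD1 was the line with a call. AGR2 was at 556, 525, 527 and 528 CPM in LRCs and at 626, 635, 631 and 648 in non-LRCs, with no overlap, and fell by 0.25 on the log2 scale (SE 0.05, adjusted p = 0.0069). It was 1 of the 6 members tested, and 14.6% of all 13592 genes were called, with 7.89% of all genes lower. The call held without each of the 8 libraries (adjusted p 0.011 to 0.024) and missed the threshold with all 48 sorted samples in 1 fit (log2 -0.27, adjusted p = 0.19; range 1.97e-07 to 0.19).

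Same-numbered LRC and non-LRC libraries deviated together in DLD1, and with the replicate number as a block 4 of the 6 members passed there, as did 33.8% of all genes. These were AGR2 (-0.25, adjusted p = 2.2e-05), MUC5AC (-0.24, adjusted p = 0.0039), SPDEF (-0.67, adjusted p = 0.027) and TFF3 (0.20, adjusted p = 0.048). Without the block these last 3 had adjusted p of 0.118, 0.078 and 0.38. MUC5AC was at 86.8, 108, 78 and 76.8 CPM in LRCs against 107, 101, 94.1 and 109, and passed without LRC replicate 2 (-0.35, adjusted p = 0.010; range 0.0039 to 0.31), where 12.4% of all genes did. SPDEF was at 1.18, 1.11, 1.86 and 1.31 CPM against 2.51, 1.71, 2.39 and 2.11, lower in 4 of 4 same-numbered libraries, and passed without LRC replicate 3 (-0.88, adjusted p = 0.044; range 0.027 to 0.19), where 10.1% of all genes did. For each of MUC5AC and SPDEF the library left out held the highest LRC value, so that both passes are descriptions.

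Of the trefoil factors, 0 of 3 passed in DLD1 without the block. TFF2 was at 0.888, 0.898, 0.965 and 0.899 CPM in LRCs against 1.49, 1.64, 1.06 and 1.1, lower in 4 of 4 and without overlap (log2 -0.54, SE 0.23, adjusted p = 0.142). TFF3 was at 27.9, 23.6, 40.1 and 36.1 CPM against 24.2, 26.7, 30.2 and 28.6, and TFF1 at 8.96, 8.64, 6.83 and 5.64 against 8.55, 9.43, 6.57 and 8.06. In HCT15 AGR2 alone passed the filter, at 34.2, 35.9, 41.8 and 46 CPM in LRCs against 39.3, 36.6, 51.2 and 50.3, lower in 4 of 4 same-numbered libraries (log2 -0.17, SE 0.13, adjusted p = 0.53, and 0.12 with the block). It was not called there by edgeR or DESeq2, where edgeR called 0.977% of all genes. In RKO and SW48, where 41.5% and 0.796% of all genes were called, 0 members passed the filter.

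The lines were then compared in their LRC effect. A test of the difference between lines, an F test over the 6 lines in edgeR, called 0 of the 9 members, against 14.3% of all genes. Adjusted p was lowest for AGR3 (0.143), TFF1 (0.16) and TFF2 (0.164), and these 3 had an unadjusted p under 0.05. DESeq2 was not run for this test. The opposite signs of TFF2 in DLD1 and in HT55 and SW948 are thus not shown to differ by this test.

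Other genes of mucus making were read as lists, beside 12.2% of all genes higher, 10.7% lower and a median log2 of 0.015 over all genes. Of 9 other mucins tested, 4 were higher and 0 lower in LRCs across the 6 lines, with a median of 0.21. They were the membrane mucins MUC4 (log2 0.96, adjusted p = 0.016), MUC17 (0.90, 0.011), MUC20 (0.29, 0.0095) and MUC13 (0.21, 0.04999), by edgeR. Of 12 transcription factors of the secretory lineage, 2 rose, KLF4 (0.38, adjusted p = 3.2e-05) and ELF3 (0.46, adjusted p = 0.00013), and 1 fell, HNF4A (-0.15, adjusted p = 0.0083), with a median of 0.056. KLF4 is known for goblet cell differentiation, and ELF3 is an epithelial ETS factor.

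Of 14 genes listed as other goblet cell products, 1 rose, BCAS1 (0.50, adjusted p = 0.023), with a median of 0.043. That list is not confined to goblet cells, since LGALS4 is on it and also on the list of intestinal epithelial markers. Of 26 genes of mucin folding and glycosylation, 6 rose and 3 fell, with a median of 0.044. ERN2, the stress sensor of goblet cells, fell (-0.39, adjusted p = 0.0015) while its widely expressed relative ERN1 rose (0.30, adjusted p = 0.0076), as did the glycosyltransferase GCNT1 (0.23, adjusted p = 0.0082) and the transglutaminase TGM3 (0.76, adjusted p = 0.0095). Of 11 genes beside the members in the genome, 2 rose, TMPRSS3 (0.45, adjusted p = 0.00079) and TOLLIP (0.11, adjusted p = 0.026), and 1 fell, BZW2 (-0.29, adjusted p = 1.7e-06), with a median of 0.042. TMPRSS3 lies beside TFF1, and BZW2 lies in the region of AGR2.

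Markers of other cell types moved as well, and their part in the results above was not tested. Of 10 enterocyte markers, 3 were higher in LRCs (CEACAM7 1.63, AQP8 1.58 and SLC26A3 0.83) and 1 lower (VIL1 -0.30), and their summed level was 1643 to 1859.9 CPM in HT55 LRCs and 1725 to 1893 in non-LRCs, with 1 and 3 of 14 markers at 0. In SW948 it was 1945 to 2124 and 2014 to 2130.5 CPM, also with 1 and 3 of 14 at 0. Of 6 tuft markers 3 rose (PTGS1 0.74, AVIL 0.55 and DCLK1 0.97), with sums of 12.4 to 17.4 CPM in SW948 LRCs and 9.48 to 11.4 in non-LRCs. In HT55 the tuft sums were 10.3 to 18.3 and 9.12 to 16 CPM. In DLD1 the tuft sums were 12.3 to 16.5 CPM in LRCs and 8.83 to 9.68 in non-LRCs. The enteroendocrine sums there were 52.5 to 116 and 34 to 48.8 CPM, and neither list had an overlap. Of the 12 enteroendocrine markers, 2 reached a mean of 1 CPM in DLD1 LRCs and 1 in non-LRCs, with 5 and 6 at 0. That sum thus rests mainly on these few genes. In DLD1, 1 of 2 enteroendocrine markers tested was called (SCG5, higher in LRCs), and 0 of 3 tuft markers were. Across the 6 lines, 1 of 4 enteroendocrine markers rose (INSM1 0.90), and 1 of 6 non-epithelial markers (CD68 0.77). In the same comparison 0 of 4 Paneth markers passed and 1 of 10 intestinal epithelial markers (VIL1) fell. The median log2 values of these lists were 0.20 for enterocyte, 0.40 for tuft, 0.25 for enteroendocrine, 0.20 for non-epithelial, 0.080 for Paneth and 0.034 for intestinal epithelial markers.

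The controls labeled DLD1 ask what the dye and the time in culture do to these genes. Among them DMSO day 1 replicate 4 stood apart from its group, with r 0.989 to sorted HCT15 against 0.968 to 0.972 in the other 3, and with the intestinal factor CDX2 at 334 CPM against 87.9 to 90.7. CFSE day 1 replicates 1 and 2 (r 0.943 and 0.946) also lay apart from replicates 3 and 4 (0.966 and 0.967). Reads outside genes made up 12.15% to 14.77% with CFSE and 8.96% to 13.57% with DMSO on day 1. In the later-day groups they made up 5.19% to 8.35%, and the part of this difference in the results was not tested.

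Only AGR2 and SPINK4 passed the filter there, because 7 of the 9 members were under 1 CPM in every one of the 16 libraries and TFF1 had 0 reads in all of them. AGR2 on day 1 was at 60.3, 63, 51.4 and 47.9 CPM with DMSO and at 19.2, 22.1, 26.2 and 22 with CFSE, without overlap, and fell by 1.29 on the log2 scale with the dye (SE 0.13, adjusted p = 4.6e-05). On the later day it was at 62.4, 52.1, 52.6 and 49.3 CPM with DMSO and at 45.6, 51, 50.9 and 50.6 with CFSE, which overlapped and did not pass the test (-0.12, SE 0.12, adjusted p = 0.58).

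With the dye, AGR2 rose between the 2 days by 1.26 (SE 0.13, adjusted p = 2.1e-05), and with DMSO the value was higher by 0.10 (SE 0.12, adjusted p = 0.58), which did not pass. The difference between these 2 changes was 1.16 (SE 0.18, adjusted p = 0.0086) and passed, as 0.999% of all 14518 genes did. AGR2 was 1 of the 2 members tested in the calls for the dye on day 1, where 21.8% of all genes passed, and for time with the dye, where 39.3% did. For time with DMSO and for the dye on the later day, 0 of 2 members were called by edgeR or DESeq2, with 0 at an unadjusted p under 0.05, against 25.5% and 5.13% of all genes by edgeR. These shares rested on single libraries. Without DMSO day 1 replicate 4 they were 42.1% for time with DMSO, 43.7% for time with the dye, 18% for the dye on day 1, 13.3% on the later day and 6.09% for the difference of the changes. Over the 16 fits that left out 1 control each they ran from 6.68% to 42.1%, 29.2% to 43.7%, 9.41% to 25.7%, 0% to 13.3% and 0.111% to 6.09%. Without DMSO day 1 replicate 4, AGR2 was at -1.38 for the dye on day 1, 1.24 for time with the dye and 1.27 for the difference (adjusted p = 6.1e-05, 5.7e-06 and 0.0020). All of the alternatives kept the 3 AGR2 calls, with adjusted p up to 0.032.

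The lists held genes that moved both ways in these controls. Of all genes, 21.8% were called in either direction for the dye on day 1 and 39.3% for time with the dye. Shares by direction are not given for these comparisons, so that the counts by direction below are descriptions. On day 1 with the dye, 4 of 6 tested genes listed as other goblet cell products fell and 0 rose (LGALS4 -2.10, SCNN1A -1.12, KLK1 -1.19 and SYTL2 -0.77), and the same 4 rose with time under the dye (1.63, 0.94, 1.47 and 1.45). LGALS4 is also on the list of intestinal epithelial markers, so that it is counted in both lists. Both comparisons share the dyed day 1 libraries. Of 23 folding and glycosylation genes, 4 fell and 2 rose with the dye on day 1, among them ERN2 (-1.87), KDELR3 (-0.92), a receptor that returns proteins to the endoplasmic reticulum, and GALNT12 (-0.93), while GALNT5 rose (1.68). Of 11 transcription factors of the secretory lineage, ELF3 (1.98), KLF4 (1.93) and RUNX1 (0.61) rose with the dye on day 1 and CREB3L4 fell (-0.66). Of 9 intestinal epithelial markers 4 fell and 0 rose (VIL1 -2.34, LGALS4 -2.10, CDX2 -1.32 and KRT19 -0.42). Of 9 genes beside the members in the genome, BZW2 in the region of AGR2 rose (0.65, adjusted p = 0.015), opposite to AGR2, and RSPH1 fell (-1.10). Of 5 other mucins MUC3A rose (0.93) and MUC13 (-1.47) and MUC4 (-1.56) fell, and of 4 enterocyte markers CA2 rose (1.80) and VIL1 fell. Without DMSO day 1 replicate 4, CDX2 was at -0.58 and still passed (adjusted p = 0.020), KRT19 (-0.36, adjusted p = 0.087), MUC13 (-0.67, adjusted p = 0.0502) and CA2 (1.54, adjusted p = 0.063) no longer did, and the other genes named here for the dye on day 1 kept their calls. The part of such a shift in the AGR2 value was not tested.

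SPINK4 was at 1.01, 1.02, 0.757 and 0.305 CPM with DMSO on day 1 and at 0.204, 0.336, 0.376 and 0.29 on the later day, and with CFSE at 0.518, 0.217, 1.02 and 1.11 and then at 0.369, 0, 0.175 and 0.453. The log2 differences with time were -1.19 (SE 0.58, adjusted p = 0.135) and -1.42 (SE 0.61, adjusted p = 0.072). Without DMSO day 1 replicate 4, in which SPINK4 was lowest of its group, both passed (-1.53 and -1.46, adjusted p = 0.039 and 0.048), and the second passed also without CFSE day 1 replicate 2 (-1.78, adjusted p = 0.031) and without CFSE later-day replicate 4 (-1.88, adjusted p = 0.0495), where 31.1% and 31.7% of all genes did. CFSE day 1 replicate 2 was the lowest and CFSE later-day replicate 4 the highest of its group, so that these passes are descriptions. Over all alternatives adjusted p ranged from 0.039 to 0.285 with DMSO and from 0.031 to 0.19 with CFSE. With 19 reads at most in a library, these values rest on few reads.

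**Figure D4:**
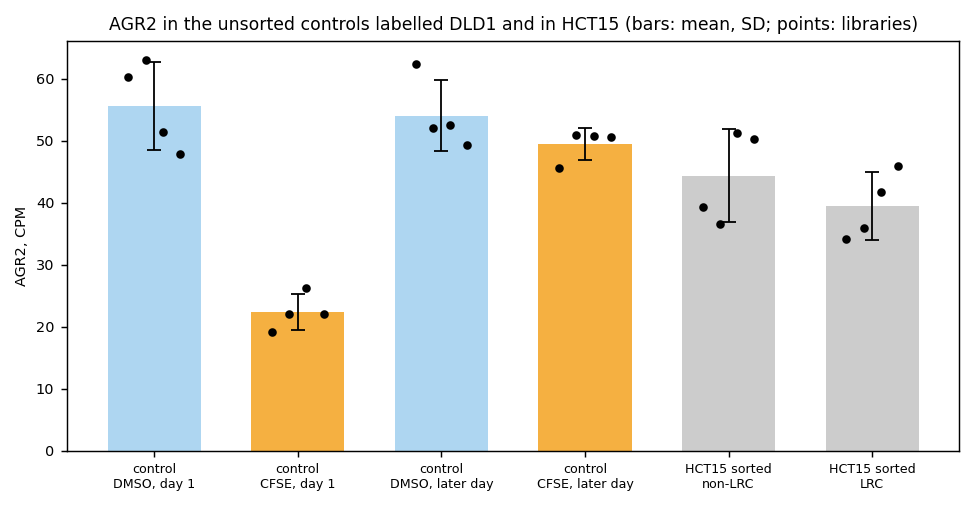
AGR2 in CPM in the 4 groups of unsorted controls labeled DLD1 and in sorted HCT15, with bars for the mean, whiskers for the SD and a point per library (n = 4 per group). The CFSE group of day 1 lies at 19.2 to 26.2 CPM, below every library of the other 5 groups.

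Sorted DLD1 and the controls of that label were compared directly, a comparison added after the data were seen. Non-LRCs of DLD1 and the CFSE control of the later day shared the line label and the dye but differed in sorting. Of all 15229 genes, 55.2% were called and 26% were higher in sorted DLD1. Of 7 members tested, 5 (MUC5AC, TFF1, TFF2, TFF3 and SPDEF) passed the filter on low counts through sorted DLD1 alone, with at most 9 reads in any HCT15 or control library, so that their values are descriptions and their number is not read against that share. AGR2 was higher by 3.71 (SE 0.13, adjusted p = 4.5e-20). MUC5AC had 5869 reads in the 4 sorted libraries and 0 in the 4 controls, at least 2134-fold higher when the control is set to 3 reads over the group. TFF1 with 466 reads against 0 was at least 169-fold higher, and TFF2 with 76 against 0 at least 27.6-fold.

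TFF3 had 1568 reads in sorted DLD1 non-LRCs against 1 in the control, a ratio of 1711 with a 95% exact Poisson interval of the control count of 307 to 67572. SPDEF had 125 against 2 (68.2-fold, 18.9 to 563). The intervals and floors cover counting error only. SPINK4 did not pass (0.86, SE 0.63, adjusted p = 0.255). Sorted HCT15 non-LRCs and the same control held few reads of most members, so that a difference in these was hardly detectable at this depth. Over 4 libraries each, TFF1 and TFF2 had 0 reads in both, MUC5AC 3 against 0, SPDEF 4 against 2 and TFF3 10 against 1. TFF3 passed (adjusted p = 0.034, and 0.021 to 0.14 over the alternatives). These 5 genes had entered the fit through sorted DLD1 alone, so that the TFF3 call rests on few reads and is a description. AGR2 in sorted HCT15 against the control was at -0.24 (SE 0.12, adjusted p = 0.103), where 38.3% of all genes were called.

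By lists, 9 of 10 tested other goblet cell products, 5 of 7 other mucins and 10 of 11 neighbors in the genome were higher in sorted DLD1 than in the control, with 0, 2 and 0 lower. Other lists went both ways. Of 26 folding and glycosylation genes 11 were higher and 6 lower (median log2 0.052, against -0.028 over all genes), of 12 secretory lineage transcription factors 5 and 2, and of 9 intestinal epithelial markers 1 and 4. Genes of these lists can also have passed the filter through sorted DLD1 alone, so that the counts are descriptions and are not read against the share over all genes. Among the lower genes were the glycosyltransferase GALNT5 (-4.46, adjusted p = 2.1e-13) and the transcription factor GFI1 (-1.72, adjusted p = 8.5e-09). Among the higher genes, CFTR was at 161 CPM against 0.284, MUC6 at 14.1 against 0, ERN2 at 106 against 3.19 and REG4, a goblet cell lectin, at 23.2 against 0.089. In sorted HCT15 non-LRCs these 4 genes were at 0.417, 0.0988, 2.88 and 0.596 CPM.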

How the data were processed

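The authors aligned single-end TruSeq reads to hg19 (GRCh37) with TopHat and counted reads per Ensembl gene with HTSeq, per the labels and the study's methods. Tool versions and the strand setting are not given in the sources used here. The deposited files hold raw counts per gene for 64 libraries. Records of reads outside genes were left out of library sizes (5.19% to 14.8% of reads placed). Records for reads that map to several places were also left out.

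Symbols and positions came from GENCODE lifted to GRCh37 for 47098 of 54127 identifiers. CPM used the counted reads, and RPKM divided this by merged exon length. Tests were edgeR 4.0.16 quasi-likelihood F tests in R 4.3.3 with TMM, keeping genes that reached 10 counts in 4 or more libraries of a fit, adjusted over all genes tested. SE is the log2 change over the square root of F. Groups came from the sample labels. Comparisons were LRC against non-LRC over 48 samples with line as covariate and in 8 samples per line, the line by population interaction, levels between lines in 24 non-LRCs, and dye and time in 16 controls. Alternatives were DESeq2 1.42.0, RLE or no TMM, other filters, a replicate block, and libraries left out. The study describes biological quadruplicates, and p-values measure the spread between these libraries. Sets of samples with identical counts numbered 0.

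Deviations of same-numbered LRC and non-LRC libraries correlated at 0.21 to 0.50 in HT55, 0.17 to 0.59 in SW48, 0.24 to 0.48 in DLD1 and 0.31 to 0.54 in HCT15, so that the numbers were taken to pair them there. In SW948 (-0.0086 to 0.21) and RKO (-0.080 to 0.0099) they were not. Among the controls only the 2 CFSE groups reached this (0.14 to 0.27).

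Named genes were all members, up to 4 genes per other list with the smallest p among those called, and for each member of at least 5 CPM in a sorted group the 3 genes most like it. Genes named in the control comparisons, the FOXA factors, KRT20, MUC6, CFTR, REG4 and LYZ were chosen after their values were seen. The members and lists were chosen with earlier results of these data known. The test was checked on simulated counts with the same dispersion for every gene and with no paired or outlying libraries. That check therefore does not cover these features of the data.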

Additional observations from a re-analysis of the deposited data

Results flagged for a closer look

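AGR2 changed between the 2 days with the dye and not with DMSO in the unsorted controls labeled DLD1, and the difference of the 2 changes was 1.16 on the log2 scale (edgeR, adjusted p = 0.0086, n = 4 per group).

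In 6 of 46 groups of 4 libraries with a mean of at least 1 CPM, 1 library lay far from the other 3 by Dixon's criterion, which chance gives in about 1 in 20 groups. TFF3 was lowest in HT55 LRC replicate 2, at 158 CPM against 264 to 280. AGR2 was lowest in HT55 non-LRC replicate 2, at 40.5 CPM against 55.1 to 57.2. TFF2 was highest in HT55 non-LRC replicate 4, at 7.10 CPM against 4.62 to 4.93. TFF1 was highest in SW948 non-LRC replicate 1, at 20.5 CPM against 13.9 to 14.4. AGR2 was highest in DLD1 LRC replicate 1, at 556 CPM against 525 to 528, and lowest in the later-day CFSE control replicate 1, at 45.6 CPM against 50.6 to 51.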

How the results depend on the processing

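The count of members called was 3 across the 6 lines, 0 in HT55, 0 in SW948, 1 in DLD1, 1 for time with CFSE and 0 with DMSO. Of all genes tested, 22.9%, 0%, 0%, 14.6%, 39.3% and 25.5% were called in these comparisons. Without a filter on low counts the count of members was 1 in HT55, 4 in SW948, 2 in DLD1 and 3 for time with CFSE. Of all genes, 102 of 26261, 973 of 27040, 2089 of 27106 and 5942 of 30600 were called there. With all 48 sorted samples in 1 fit 1 member was called in HT55, 2 in SW948 and 0 in DLD1, beside 106, 389 and 646 of 16603 genes. DESeq2 called 1 member in SW948, beside 244 of 13674 genes. With 10 counts required in every sample, sorted DLD1 against the control gave 1 member in place of 6, because fewer members were tested. Of all genes, 6781 of 11797 were called in place of 8413 of 15229. Of those 6 members, 5 had passed the main filter through sorted DLD1 alone, so that their number is a description. Across the 6 lines no member was left under that requirement. Leaving out libraries gave 1 to 4 members across the 6 lines, 0 to 2 in HT55, 0 to 3 in SW948, 1 to 2 in DLD1, 1 to 2 for time with CFSE and 0 to 1 with DMSO. Over all genes these fits called 2243 to 4372 across the 6 lines and 0 to 521 in HT55. They called 0 to 1956 in SW948 and 963 to 1784 in DLD1. For time they called 29.2% to 43.7% with CFSE and 6.68% to 42.1% with DMSO. The replicate block gave 3 in SW948 among 501 genes, where the numbers do not pair the libraries, and 4 in DLD1 among 4591. It changed no other count. The cause of these changes was not tested.

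Uncalled log2 values near 0 changed sign. Without TMM, TFF3 in HT55 against SW948 was -0.24, AGR2 with time under DMSO -0.041, MUC2 in HT55 -0.0040 and MUC5AC in SW948 0.0060, which was 0.00081 with 10 counts in every sample. In LRCs, TFF3 in HT55 against SW948 was -0.23 and AGR2 in SW948 against DLD1 0.13. With libraries left out, values ran from -0.035 to 0.050 for SPINK4 across the lines, -0.047 to 0.19 for TFF1 and -0.16 to 0.19 for MUC2 in HT55, -0.27 to 0.10 for MUC5AC in SW948, -0.076 to 0.17 for TFF3 in HT55 against SW948, -0.092 to 0.0057 for AGR2 in SW948 against DLD1 and -0.060 to 0.17 for AGR2 with time under DMSO. For SPINK4 they ran from -0.37 to 0.22 for the dye on day 1, -0.77 to 0.10 on the later day and -0.69 to 0.18 for their difference. Of 980 gene values recomputed, 898 kept direction and call, 30 gained a call, 16 lost one and 36 changed sign. Depth limits genes under 1 CPM, which is 12.24 to 20.91 reads in a library.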

Other observations

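The forkhead factors, which are known to act on goblet cell genes, were read in HT55, SW948 and DLD1, with no test between the lines. In non-LRCs FOXA1 was at 221 CPM in DLD1, 3.17 in SW948 and 0.156 in HT55, while FOXA2 was at 8.91, 83.5 and 48.9 CPM and FOXA3 at 4.21, 33.0 and 29.9 CPM, where SW948 and HT55 overlapped. In HCT15, where AGR2 was present and the trefoil factors were near 0, they were at 45.9, 0.512 and 6.71 CPM. In the later-day CFSE control labeled DLD1 they were at 43.8, 0.418 and 5.58 CPM. KRT20, a keratin of differentiated colon cells, was at 540.5 CPM in HT55, 809 in SW948 and 35.8 in DLD1.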
